A study of Arabidopsis thaliana with 20 samples.

Results

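Cysteine-rich receptor-like kinase (CRK) genes were examined for 4 chromatin features and for histone H3 itself in Arabidopsis seedlings with reduced H3.3. The genes were taken from the TAIR10.1 RefSeq annotation as nuclear protein-coding genes whose product text names a cysteine-rich RLK or cysteine-rich receptor-like protein kinase. This gave 41 genes of the 26206 nuclear protein-coding genes of at least 500 bp that were used. The rule did not use any measured value, and 40 of the 41 genes passed the read filter in all 15 comparisons. The remaining gene, AT4G20645, had 0 reads in its 3 windows in all 20 libraries because 0% of its 50-base start positions are unique in the genome, and it was not measurable here.

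CRK proteins sit in the plasma membrane and carry extracellular cysteine-rich DUF26 domains, a transmembrane segment and an intracellular serine/threonine kinase domain. Many of the genes lie in tandem arrays, are induced by pathogens, salicylic acid or reactive oxygen species, and take part in immunity, cell death and stress responses. Histone H3.3 is the replication-independent variant of H3. H2A.Z is a variant of H2A that is found around transcription starts of most plant genes and also over the bodies of inducible, weakly expressed genes, whereas H3K4me3 and H3K36me3 accompany transcription, and linker histone H1 binds DNA between nucleosomes.

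The study compared h3.3kd seedlings with wild-type (WT) seedlings, both of the Columbia ecotype, grown for 10 days on MS medium with glucose in long days. The h3.3kd plants carry insertion alleles of HTR4 and HTR8 and an artificial microRNA against HTR5, the remaining H3.3 gene, driven by the HTR5 promoter. They are therefore a knockdown and not a null, and the sources used here do not name the line behind the ChIP libraries. Each genotype was profiled by chromatin immunoprecipitation and sequencing (ChIP-seq) with antibodies to H3, H3K4me3, H3K36me3, H2A.Z and H1, with 2 replicates each, which makes 10 h3.3kd and 10 WT libraries. Whole seedlings of unstated number went into each sample. The labels do not say whether replicates came from separate cultures, so p-values measure only the spread between these samples. H3.3 and H3.1 are not told apart by the H3 antibody, and the loss of H3.3 protein was not measured in these libraries.

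Reads were counted in 3 windows per gene: the promoter (500 bp upstream of the gene start), the 5′ window (the first 25% of the gene) and the 3′ window (the last 50% of the gene). Each mark is given as log2 of its reads per 1000000 reads (RPM) over the H3 RPM of the same genotype and replicate number, so that 0 means equal shares of the 2 libraries. H3 itself is given as log2 RPM. Depth ranged from 10829576 to 68090065 reads in h3.3kd libraries and from 8688846 to 53927583 reads in WT libraries. A CRK gene held a median of 68 reads per library in the promoter, 180.5 in the 5′ window and 297 in the 3′ window, with extremes of 4 and 694, 17 and 1713, and 27 and 2339 reads. Because the study kept at most 1 read per strand and position, the deepest libraries filled much of a window: over the CRK 5′ windows the median occupied share of positions was 59.4% in h3.3kd and 47.4% in WT for H2A.Z replicate 2, against 21.7% in h3.3kd and 18.1% in WT for H2A.Z replicate 1.

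Of the 41 CRK genes, 37 are on chromosome 4, 2 on chromosome 1, 1 on chromosome 3 and 1 on chromosome 5. Tandem arrays hold 28 of them. The first array runs from CRK36 to CRK40 with 5 genes (chr4:2231717-2292965), the second from CRK30 to CRK33 with 4 genes (chr4:6963521-6981548) and the third from CRK5 to CRK24 with 19 genes (chr4:12117491-12191704). The other 13 genes are dispersed. The CRK genes were longer than genes at large, with a median of 2936 bp against 2147 bp over all genes, and 26 of the 41 have 7 exons. In all 3 windows at least 80% of read start positions were unique for 38 of the 41 genes. The exceptions were AT4G20645, CRK8 with 63.8% in its 3′ window and CRK6 with 77.7% in its 3′ window. CRK28 and CRK29 overlap on the same strand, the promoter of CRK28 lies in CRK29, and CRK10 and CRK11 overlap as do CRK16 and CRK17, so reads in the shared stretches count for both genes of a pair.

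Promoters of 4 CRK genes that recur in the results are shown, for the 250 bases before the gene start. CRK38 and CRK29 stand at the top and bottom of the family for H2A.Z in the 3′ window in WT, and CRK11 and CRK5 have the most W-box cores. The W box is the element bound by WRKY transcription factors of the defence response, and its core TTGAC is in capitals, on either strand (GTCAA is the core read on the other strand). The sequences are from the RefSeq TAIR10.1 genome and are written 5′ to 3′ on the strand of the gene: CRK38 (chr4:2241822-2242071, plus strand), CRK29 (chr4:11405236-11405485, minus strand), CRK11 (chr4:12143859-12144108, minus strand) and CRK5 (chr4:12120221-12120470, minus strand).
CRK38: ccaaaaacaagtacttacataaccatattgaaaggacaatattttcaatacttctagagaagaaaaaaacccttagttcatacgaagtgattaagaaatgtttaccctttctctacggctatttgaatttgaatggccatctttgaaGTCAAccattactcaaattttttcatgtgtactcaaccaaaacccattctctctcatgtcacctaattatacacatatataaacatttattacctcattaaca
CRK29: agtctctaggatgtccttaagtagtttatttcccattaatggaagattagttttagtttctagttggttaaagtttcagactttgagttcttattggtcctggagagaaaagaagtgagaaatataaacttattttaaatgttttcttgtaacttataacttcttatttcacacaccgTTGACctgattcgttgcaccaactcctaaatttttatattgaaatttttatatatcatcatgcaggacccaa
CRK11: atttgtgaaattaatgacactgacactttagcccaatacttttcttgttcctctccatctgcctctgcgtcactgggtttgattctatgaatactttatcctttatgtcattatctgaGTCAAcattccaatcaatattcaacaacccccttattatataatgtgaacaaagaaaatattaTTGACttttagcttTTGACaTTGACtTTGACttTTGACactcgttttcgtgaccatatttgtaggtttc
CRK5: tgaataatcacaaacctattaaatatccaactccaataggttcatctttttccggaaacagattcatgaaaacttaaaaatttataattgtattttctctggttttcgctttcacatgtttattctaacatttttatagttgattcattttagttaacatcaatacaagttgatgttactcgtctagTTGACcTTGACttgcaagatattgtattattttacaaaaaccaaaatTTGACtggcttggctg

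The core was searched on both strands of the 500 bp promoters. At least 1 TTGAC was present in 36 of 41 CRK promoters, or 87.8%, and in 67.5% of the 26206 promoters of all genes. The longer forms TTGACC or TTGACT, which contain the core, were present in 32 of 41 CRK promoters, or 78.0%, and in 45.2% of all promoters. CRK5 and CRK11 had 6 cores each in 500 bp, and CRK3, a dispersed gene with high H3K36me3, had 0. The promoters of the family had a median GC content of 33.4%, against 31.4% over all genes. A match of these letters is a description of the sequence only.

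In WT seedlings most CRK genes had more H2A.Z in the 3′ window and less H3K36me3 in the 3′ and 5′ windows than the median gene. In the 3′ window the median H2A.Z level of the 40 measured genes exceeded the median of all genes by 0.50 in replicate 1 and 0.55 in replicate 2 on the log2 scale. In both WT libraries 14 of 40 genes were in the top 25% of all genes for H2A.Z, a place that 17.1% of all genes reached, and 1 of 40 was in the bottom 25%, against 16.2% of all genes. H1 showed the same placing in the 3′ window, with 13 of 40 genes in the top 25% in both WT libraries against 9.76% of all genes, and in the promoter, with 11 of 40 against 9.21%. H3K36me3 was the reverse: in the 3′ window 20 of 40 genes were in the bottom 25% in both WT libraries, against 14.8% of all genes, and the median of the family lay below that of all genes by 0.60 in replicate 1 and 0.43 in replicate 2. H3K4me3 in the 5′ window had WT medians of 0.10 and 0.49, against 0.72 and 0.72 over all genes, and by the WT mean 8 of 40 genes were above the all-gene median and 9 in the bottom 25%.

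**Figure D1:**
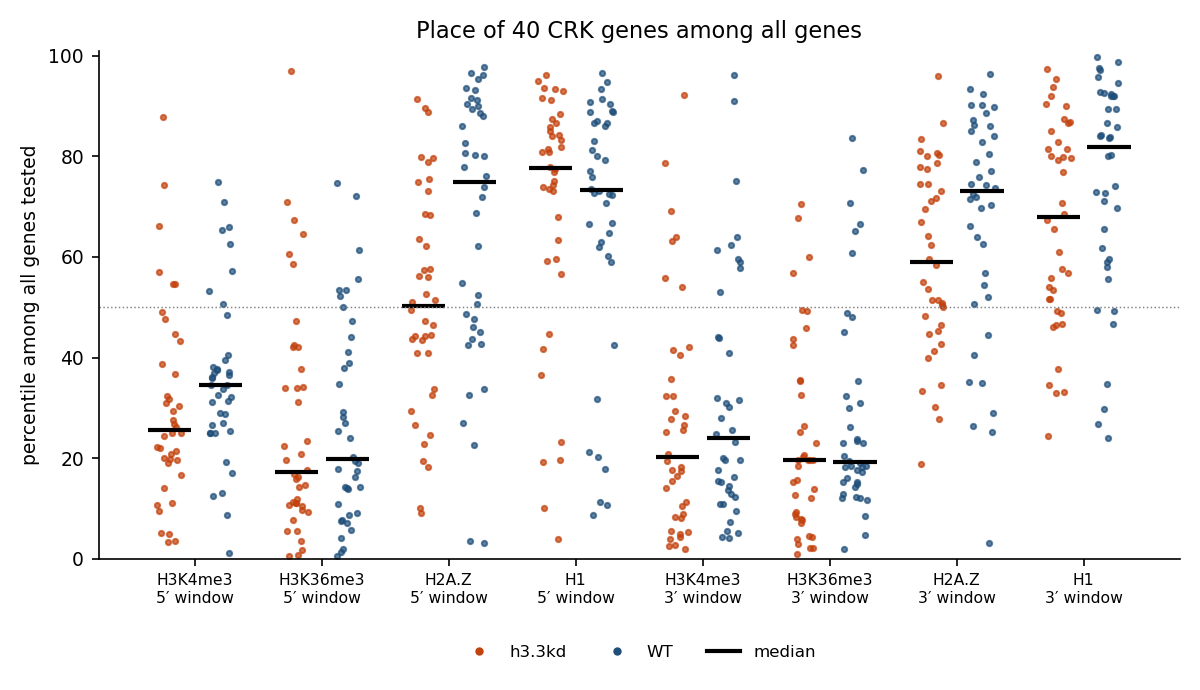
Percentile of each of the 40 measured CRK genes among all genes tested, by antibody and window (mark over H3, mean of 2 replicates; 5′ window, first 25% of the gene; 3′ window, last 50%), with h3.3kd left of WT and bars at the medians. In WT the median percentile was 73.1 for H2A.Z and 81.9 for H1 in the 3′ window, and 19.9 for H3K36me3 and 34.5 for H3K4me3 in the 5′ window.

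After the start of the gene the mean profiles of H2A.Z and H3K36me3 over the family differed in level from those of all genes. The bin with the highest WT H2A.Z over CRK genes began at -50 bp in replicate 1 and 650 bp in replicate 2, so shapes are not compared. Median lengths were 2936 bp for CRK genes and 2147 bp for all genes, so the stretch described next runs past the end of shorter genes. Between 1000 and 2000 bp after the start, H2A.Z over H3 averaged 0.34 and 0.18 over CRK genes in the 2 h3.3kd libraries, against 0.56 and 0.50 in the WT libraries. Over all genes it averaged 0.03 and -0.01 there in h3.3kd, against 0.01 and 0.07 in WT. H3K36me3 averaged -0.61 and -0.35 over the same stretch of CRK genes in h3.3kd, against -0.24 and -0.08 in WT, and over all genes 0.34 and 0.14 in h3.3kd, against 0.28 and 0.19 in WT. H3, the denominator of both ratios, was higher there in h3.3kd. Over CRK genes H3 averaged 9.78 and 10.03 RPM per kb in h3.3kd, against 9.15 and 8.28 in WT. Over all genes H3 averaged 9.35 and 9.77 in h3.3kd, against 9.07 and 9.14 in WT.

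**Figure D2:**
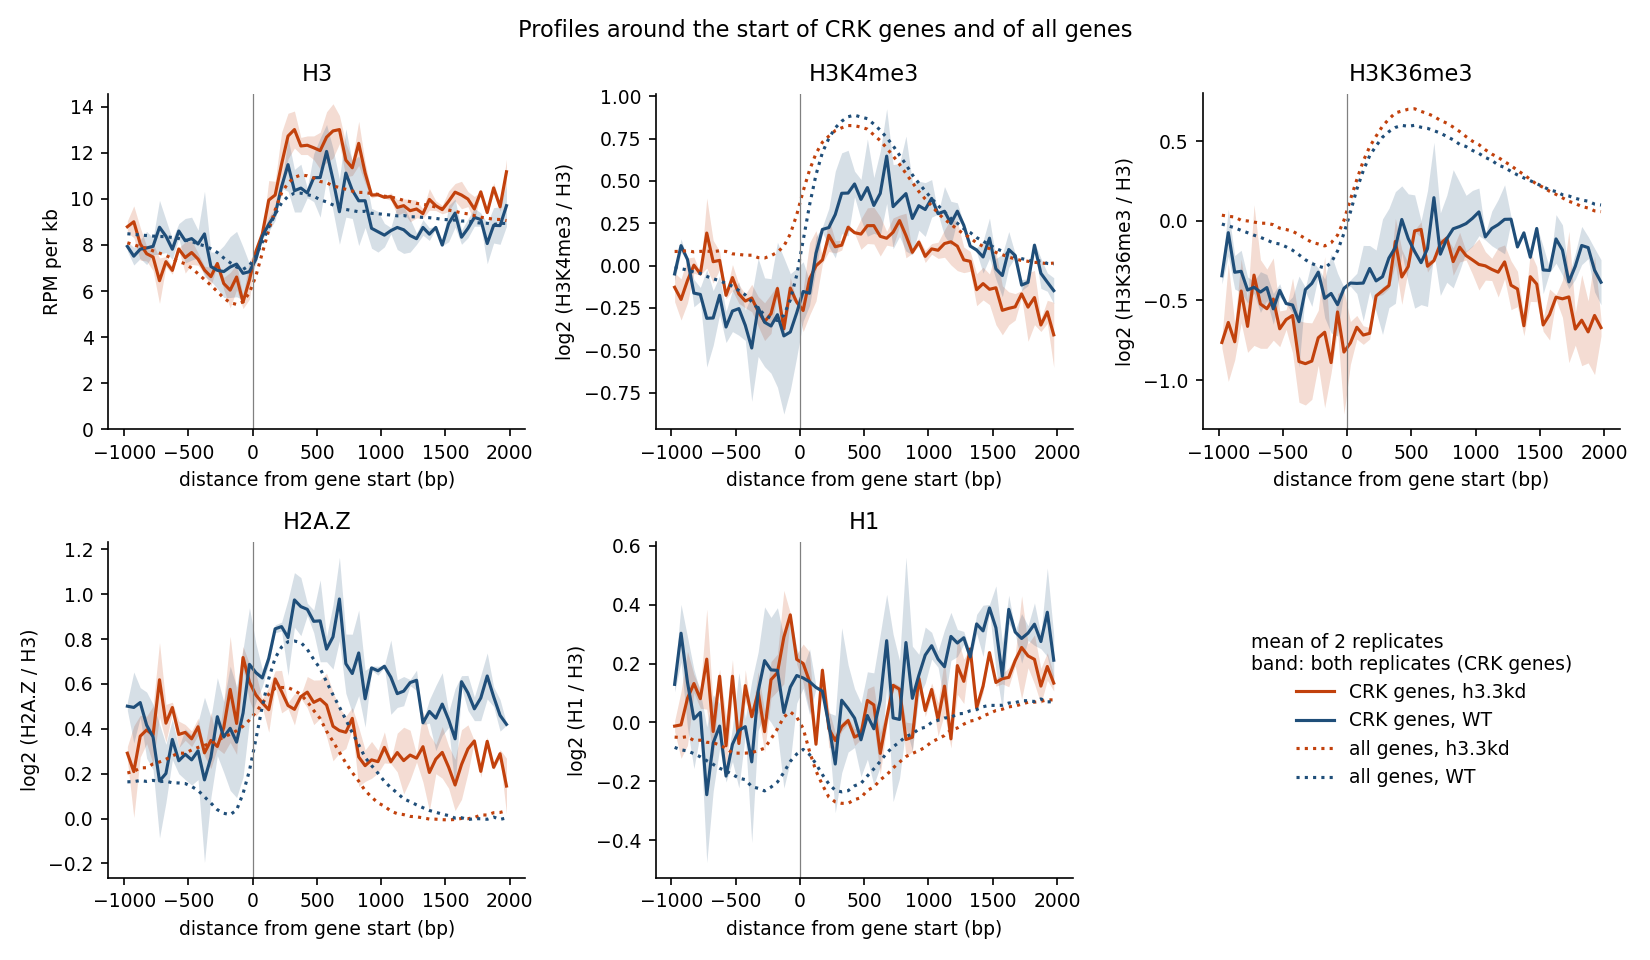
Mean profiles from 1000 bp before to 2000 bp after the gene start in bins of 50 bp, for CRK genes (solid lines, mean of 2 replicates, with a band between both replicates) and all genes (dotted lines), in h3.3kd and WT. H3 is in RPM per kb and the other panels are log2 of the mark over H3. Averaged between 1000 and 2000 bp after the start, H2A.Z relative to H3 over CRK genes is above that over all genes in both genotypes. It is lower in h3.3kd than in WT, while H3, its denominator, is higher there in h3.3kd.

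The family was not uniform, and 8 genes stood apart from the rest in WT. CRK2, CRK3, CRK10, CRK11, CRK19, CRK28, CRK29 and CRK40 were below the all-gene median of H2A.Z in the 3′ window in both WT libraries, 30 genes were above it in both, and CRK12 and CRK41 were between. H3K36me3 exceeded H3 in the 5′ window in both WT libraries in 8 genes, CRK2, CRK3, CRK10, CRK11, CRK17, CRK19, CRK29 and CRK34, of which 6 are among the 8 with low H2A.Z. Across the 40 genes, H2A.Z in the 3′ window and H3K36me3 in the 5′ window had a Pearson correlation of -0.57 between WT replicate 1 for H2A.Z and WT replicate 2 for H3K36me3, and of -0.70 the other way round. These are descriptions over genes that share libraries within a replicate, and neighbouring genes of an array are not independent. H1 in the 3′ window was placed with H2A.Z, with correlations of 0.56 and 0.49 in the same crossed manner.

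CRK29 and CRK3 had the highest WT levels of both transcription-linked marks. CRK29, which is induced together with CRK28 by bacterial flagellin, had H3K4me3 over H3 in the 5′ window of 0.91 and 0.96 in h3.3kd, against 1.11 and 1.16 in WT. Its H3K36me3 in that window was 1.12 and 0.75 in h3.3kd, against 1.08 and 1.03 in WT. The 2 genotypes overlapped for H3K36me3 and both WT values were above both h3.3kd values for H3K4me3, where the difference without H3 was 0.043 with overlap (log2 fold change -0.19 ± 0.24 (SE), limma Benjamini-Hochberg adjusted p = 1). For CRK3 H3K36me3 was 1.90 and 1.20 in h3.3kd, against 1.07 and 0.98 in WT, and H3K4me3 was 1.43 and 1.26 in h3.3kd, against 1.32 and 0.86 in WT. H3K36me3 at CRK3 was higher in each h3.3kd library than in either WT library, though the genotypes overlapped without H3 (log2 fold change 0.52 ± 0.37 (SE), limma Benjamini-Hochberg adjusted p = 1).

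At the other end were CRK33, CRK37 and CRK40 of the first and second arrays. H3K36me3 in the 5′ window of CRK37 was -1.70 and -1.37 in h3.3kd, against -1.18 and -1.23 in WT, and at CRK33 it was -2.26 and -0.48 in h3.3kd, against -1.36 and -1.37 in WT. The replicates of h3.3kd lay far apart at CRK33. H3K4me3 at CRK40 was -1.20 and -1.06 in h3.3kd, against -0.62 and -1.98 in WT, and at CRK37 it was -0.76 and -1.53 in h3.3kd, against -0.61 and -0.50 in WT. The WT values of CRK40 spanned the h3.3kd values, so no order of the genotypes could be read there.

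No CRK gene passed an adjusted p of 0.05 between h3.3kd and WT in any of the 15 comparisons (limma with Benjamini-Hochberg adjustment over all genes tested; 0 of 40 each, and 0 with limma-voom). At an unadjusted p under 0.05 there were 6 gene and window results higher in h3.3kd and 20 lower, of 600 examined. The lowest adjusted p of any CRK gene was 0.305. Over all genes the share called was also small. It was 0% for H3 in the promoter and the 3′ window, for H3K4me3 in the 5′ window and for H2A.Z and H1 in all 3 windows. It was 0.00773% for H3 and 0.00774% for H3K36me3 in the 5′ window, 0.0347% for H3K4me3 and 0.0154% for H3K36me3 in the promoter, and 0.0462% for H3K4me3 and 0.123% for H3K36me3 in the 3′ window. All comparisons of marks share the same H3 libraries, so they are not independent of each other. What follows describes sizes, counts of genes whose libraries did not overlap between genotypes, and the same counts over all genes.

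H2A.Z relative to H3 over CRK bodies was lower in h3.3kd than in WT for most of the family, though no single gene passed the test. In the 3′ window both h3.3kd libraries were below both WT libraries at 26 of 40 CRK genes, against 18.4% of all genes, and above them at 7 of 40, against 24.7% of all genes. The median difference was -0.23 over CRK genes and 0.06 over all genes. Within replicate 1 the medians were -0.16 for CRK genes and 0.13 for all genes, and within replicate 2 they were -0.24 and -0.04. In the 5′ window 23 of 40 were below, against 26% of all genes, and 1 above, against 6.78%, with median differences of -0.34 for CRK genes and -0.14 for all genes. Without H3 the 5′ medians were -0.13 for CRK genes and -0.09 for all genes, with 16 of 40 below, against 32%. With H3 of replicate 1 as denominator both medians were -0.19, with 21 of 40 below, against 50.1%. The 5′ window thus set the family little apart from all genes under these 2 settings. Relative to H3 of the same replicate number, the family stood nearer to the average gene in h3.3kd in the 3′ window. Its median exceeded that of all genes there by 0.19 and 0.16 in the 2 h3.3kd libraries, against 0.50 and 0.55 in the WT libraries. In both h3.3kd libraries 6 of 40 genes were in the top 25% (15.8% of all genes), against 14 of 40 in both WT libraries. Since whole seedlings were used, fewer cells with H2A.Z at a gene and less H2A.Z per cell cannot be told apart. With either WT replicate left out, some CRK genes passed the test, as did many of all genes. Such fits rest on a single WT library, and passing them is not read as a trait of the CRK genes.

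The difference went with the WT level. CRK38, of the first array, had the highest WT H2A.Z of the family in the 3′ window, with 0.06 and 0.25 in h3.3kd, against 1.04 and 1.21 in WT. All 4 values were well separated (log2 fold change -0.97 ± 0.24 (SE), limma Benjamini-Hochberg adjusted p = 0.573). CRK7, which takes part in responses to extracellular reactive oxygen species, had 0.05 and 0.23 in h3.3kd, against 0.73 and 0.88 in WT, again with no overlap (log2 fold change -0.67 ± 0.23 (SE), limma Benjamini-Hochberg adjusted p = 0.573). CRK13, whose overexpression causes cell death and resistance to Pseudomonas, had 0.67 and 0.49 in h3.3kd, against 1.18 and 0.87 in WT (log2 fold change -0.44 ± 0.25 (SE), limma Benjamini-Hochberg adjusted p = 0.641). The h3.3kd replicates lay below those of WT at each of these 3 genes. H3 in the same window, the denominator of these ratios, was higher in h3.3kd by 0.53 at CRK38, 0.44 at CRK7 and 0.36 at CRK13 in log2 RPM. Without H3 the H2A.Z differences were -0.43 at CRK38, -0.23 at CRK7 and -0.086 at CRK13, and the genotypes overlapped at CRK13.

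The genes with little H2A.Z in WT went the other way. CRK29 had the lowest WT level, with -0.49 and -0.38 in h3.3kd, against -1.17 and -0.995 in WT. CRK11, a gene induced by salicylic acid and pathogens, had -0.04 and 0.09 in h3.3kd, against -0.58 and -0.56 in WT. Both genes had higher values in both h3.3kd libraries than in both WT libraries (log2 fold change 0.65 ± 0.31 (SE), limma Benjamini-Hochberg adjusted p = 0.616 for CRK29; log2 fold change 0.59 ± 0.24 (SE), limma Benjamini-Hochberg adjusted p = 0.582 for CRK11). CRK10, of which a gain-of-function allele causes dwarfism, had -0.09 and -0.05 in h3.3kd, against -0.56 and -0.42 in WT, also without overlap. Without H3 the differences were 0.49 at CRK29, 0.33 at CRK11 and 0.32 at CRK10, and the genotypes overlapped at CRK11. Of the 8 genes with low WT H2A.Z, 6 were above WT in both h3.3kd libraries and 1, CRK40, was below. Of the 30 with high WT H2A.Z, 25 were below and 1, CRK18, was above. Over all genes, whatever their WT level, 24.7% were above and 18.4% below, and no share was taken for genes of like WT level. The split into genes with low and high WT H2A.Z uses the WT libraries of the comparison itself and is a description.

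**Figure D3:**
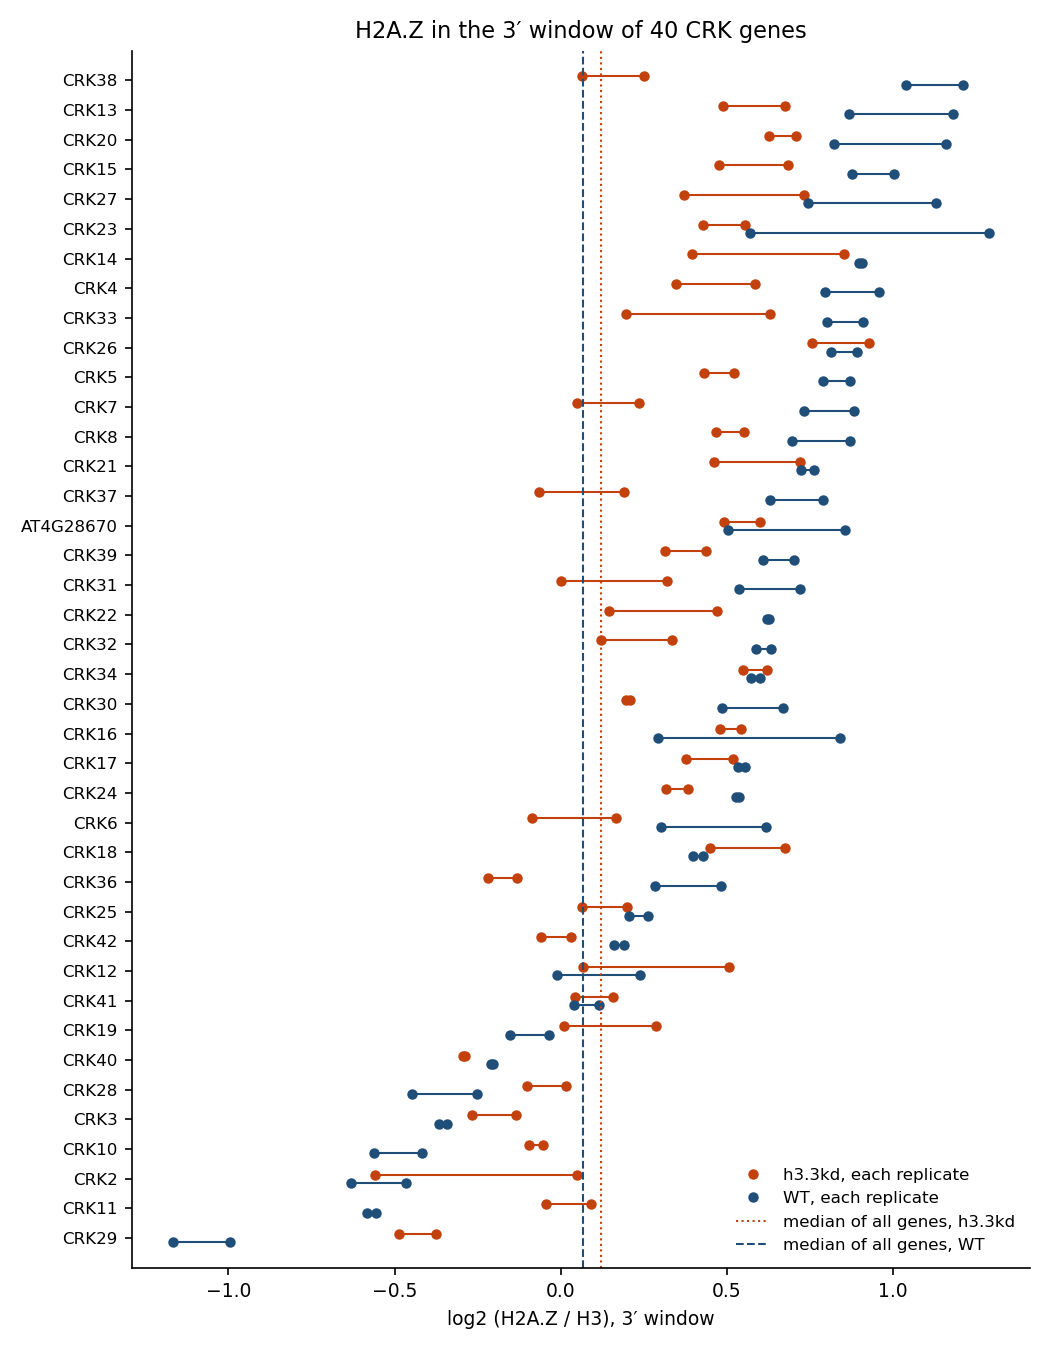
log2 of H2A.Z over H3 in the 3′ window (last 50% of the gene) of the 40 measured CRK genes, ordered by WT mean with the highest at the top; points are the replicates of h3.3kd (upper of each pair) and WT (lower), and vertical lines are all-gene medians. CRK38 at the top has 0.06 and 0.25 in h3.3kd and 1.04 and 1.21 in WT, and CRK29 at the bottom has -0.49 and -0.38 in h3.3kd and -1.17 and -0.995 in WT.

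To set the WT level against the difference without a shared library, the level was taken from one WT replicate and the difference from the replicate pair of the other number. The 31 CRK genes above the all-gene median in WT replicate 1 had a median difference of -0.38 in replicate 2, and 29 of them were lower in h3.3kd. The 9 genes at or below it had a median of 0.36, and 1 of them was lower. With level and difference exchanged, the 31 genes above the median had -0.22, with 26 lower, and the 9 others had 0.15, with 2 lower. Over all genes, those above the median had -0.17 in replicate 2 and -0.06 in replicate 1, and the rest had 0.05 and 0.37. Without H3 in the difference, the medians were -0.014 for the 31 genes and 0.19 for the 9 others in replicate 2, and -0.13 and 0.35 in replicate 1. Pearson correlations across the 40 genes were -0.74 and -0.66, and across all 26001 genes -0.19 and -0.47. With the difference in H2A.Z taken without H3, they were -0.73 and -0.70 across CRK genes and -0.68 and -0.59 across all genes, so the relation is also seen in genes at large. Genes share libraries, depth and neighbours, and no p is given.

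The choice of denominator carried much of the size. Without H3, H2A.Z RPM in the 3′ window were below WT in both h3.3kd libraries at 11 of 40 CRK genes, against 13.6% of all genes, with a median difference of -0.04 for CRK genes and 0.09 for all genes. With H3 of replicate 1 as the denominator for both replicates the count was 15 of 40, against 21.7% of all genes, and the median was -0.09. Correcting each window for removed duplicate reads left 22 of 40 below, against 17.4% of all genes, and a median of -0.23.

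H3 itself had somewhat higher medians over CRK genes in h3.3kd. In the 3′ window both h3.3kd libraries were above both WT libraries at 14 of 40 genes, against 21.6% of all genes, and below at 1, against 10.5%. In the 5′ window 14 were above, against 18.5%, and 1 below, against 7.02%. The median differences were 0.16 in the 3′ window and 0.23 in the 5′ window for CRK genes, and 0.07 and 0.06 for all genes. They rested mainly on replicate 2, where the CRK medians were 0.27 and 0.33, whereas in replicate 1 they were 0.08 and 0.01. WT H3 replicate 2 is the shallowest library of the series, and without WT replicate 2 the CRK median differences were 0.070 in the 3′ window and 0.067 in the 5′ window. Without WT replicate 1 the test rested on that library, and some CRK genes passed in each window, as did many of all genes. Without WT replicate 2 no CRK gene passed (limma). CRK38 shows the pattern, with H3 in its 3′ window of 4.04 and 3.80 in h3.3kd, against 3.75 and 3.03 in WT log2 RPM (log2 fold change 0.53 ± 0.23 (SE), limma Benjamini-Hochberg adjusted p = 0.966).

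In the promoter H3 did not separate the genotypes at 30 of 40 CRK genes; 7 were below WT in both h3.3kd libraries, against 28% of all genes, and 3 above, against 4%. The median difference was -0.15 for CRK genes and -0.32 for all genes. For CRK genes it was -0.042 with h3.3kd replicate 2 left out, 0.078 when WT replicate 2 was omitted and -0.35 when WT replicate 1 was. Among genes with at least 50 reads and no overlap between genotypes, CRK33 had the largest positive difference, with 2.44 and 2.20 in h3.3kd, against 2.01 and 1.78 in WT (log2 fold change 0.42 ± 0.31 (SE), limma Benjamini-Hochberg adjusted p = 0.892), and CRK40 followed with 2.37 and 2.51 in h3.3kd, against 2.35 and 2.30 in WT. CRK21 had 1.61 and 1.80 in h3.3kd, against 2.15 and 2.16 in WT and CRK26, the highest in WT, had 2.14 and 2.14 in h3.3kd, against 2.33 and 2.83 in WT. Both h3.3kd libraries were above WT at the first pair of genes and below at the second. CRK30 was the next highest in WT and CRK14 was the lowest among genes with at least 50 reads, and the genotypes overlapped at both.

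The median H3K36me3 of CRK genes, taken over both replicates, was lower in h3.3kd in each window, but replicate 2 had the opposite sign in the promoter. In the 3′ window both h3.3kd libraries were below both WT libraries at 19 of 40 genes, against 28.6% of all genes, and above at 0, against 7.48%. The median difference was -0.37, with -0.17 over all genes. It was -0.55 within replicate 1 and -0.19 within replicate 2, against -0.19 and -0.14 over all genes. The CRK median was -0.11 with h3.3kd replicate 1 left out and -0.65 with h3.3kd replicate 2 left out. In RPM alone it was -0.24, with -0.10 over all genes. In the 5′ window 10 were below, against 14.3%, and 5 above, against 14.4%, and in the promoter 12 were below, against 12.6%, and 0 above, against 14%. The 5′ median difference was -0.33 for CRK genes, with -0.056 in RPM alone, -0.12 with h3.3kd replicate 1 left out, -0.55 when WT replicate 1 was omitted and -0.086 when WT replicate 2 was. In the promoter the median was -0.26 for CRK genes and 0.00 for all genes. For CRK genes it was -0.67 within replicate 1 and 0.07 within replicate 2, where 25 of 40 genes were higher in h3.3kd. All genes had the same split, with -0.30 and 0.28. The CRK median was -0.052 with h3.3kd replicate 1 left out, -0.59 with h3.3kd replicate 2 left out and -0.43 when WT replicate 2 was omitted. In RPM alone it was -0.44, with -0.33 over all genes. The first h3.3kd library of H3K36me3 had the lowest coverage of CRK genes, with a median of 2.97% of positions of the 5′ window occupied against 9.46% in the WT library of the same number.

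The genes with H3K36me3 in WT differed among themselves. CRK10 had H3K36me3 in the 5′ window of 1.13 and 0.95 in h3.3kd, against 0.09 and 0.64 in WT and H3K4me3 of 1.26 and 1.11 in h3.3kd, against 0.64 and 0.76 in WT. Both marks were above WT in both h3.3kd libraries, with overlap for both without H3 (log2 fold change 0.68 ± 0.32 (SE), limma Benjamini-Hochberg adjusted p = 1 for H3K36me3; log2 fold change 0.49 ± 0.24 (SE), limma Benjamini-Hochberg adjusted p = 1 for H3K4me3). CRK34 had -0.21 and -0.50 in h3.3kd, against 0.61 and 0.45 in WT for H3K36me3, the largest negative difference of the window (log2 fold change -0.89 ± 0.35 (SE), limma Benjamini-Hochberg adjusted p = 1). CRK38 had -2.30 and -1.18 in h3.3kd, against -1.17 and -0.53 in WT (log2 fold change -0.89 ± 0.73 (SE), limma Benjamini-Hochberg adjusted p = 1). Without H3 the differences were -0.57 at CRK34, without overlap, and -0.42 at CRK38, with overlap. H3K36me3 exceeded H3 in the 5′ window at 7 genes in both h3.3kd libraries and at 8 in both WT libraries.

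H3K4me3 in the 5′ window had a lower median in h3.3kd as well. In the 5′ window both h3.3kd libraries were below both WT libraries at 17 of 40 CRK genes, against 14.2% of all genes, and above at 1, CRK10, against 15.9%. The median differences were -0.25 for CRK genes and 0.00 for all genes, and within replicates the CRK medians were -0.07 and -0.37. Without WT replicate 2 the CRK median was -0.14. In the 3′ window 14 were below, against 15.7%, and 3 above, against 13.9%. Without H3, 2 of 40 were below in the 3′ window, against 7.17% of all genes, and 2 above, against 12.6%, with a CRK median of -0.05. With H3 of replicate 1 as denominator 8 of 40 were below, against 16.6%. In the promoter, over H3 of the same replicate number, 4 were below, against 3.72%, and 5 above, against 26.1%. Some CRK genes passed the test there without WT replicate 1, as did many of all genes, with a single WT library left. The largest negative differences were at CRK38, with -0.78 and -1.15 in h3.3kd, against -0.15 and 0.15 in WT (log2 fold change -0.96 ± 0.47 (SE), limma Benjamini-Hochberg adjusted p = 1), and at its array neighbour CRK39, with -0.50 and -1.40 in h3.3kd, against -0.24 and 0.22 in WT (log2 fold change -0.94 ± 0.49 (SE), limma Benjamini-Hochberg adjusted p = 1). Both genes had H3K4me3 near the level of H3 in WT and below it in both h3.3kd libraries. Without the H3 denominator the median difference of the 5′ window was -0.01, and the differences were -0.49 at CRK38, without overlap, and -0.37 at CRK39, with overlap.

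Linker histone H1 had a slightly lower median in the 3′ window in h3.3kd. Both h3.3kd libraries were below both WT libraries at 13 of 40 CRK genes, against 15.6% of all genes, and above at 3, against 12.6%. The median difference was -0.11 for CRK genes and -0.02 for all genes, and for CRK genes it was 0.04 without H3 and -0.067 without h3.3kd replicate 1. CRK31, of the second array, had the highest WT level, with 0.37 and 0.20 in h3.3kd, against 0.73 and 0.84 in WT (log2 fold change -0.50 ± 0.17 (SE), limma Benjamini-Hochberg adjusted p = 1), and CRK38 had 0.06 and 0.19 in h3.3kd, against 0.52 and 0.78 in WT (log2 fold change -0.53 ± 0.18 (SE), limma Benjamini-Hochberg adjusted p = 1). Neither gene overlapped between genotypes. Without H3, H1 differed by -0.072 at CRK31 and 0.0081 at CRK38 and the genotypes overlapped at both, while H3 in that window was higher in h3.3kd by 0.43 at CRK31 and 0.53 at CRK38. CRK29 had 0.11 and 0.40 in h3.3kd, against 0.07 and -0.06 in WT and CRK11 0.23 and 0.11 in h3.3kd, against -0.18 and 0.04 in WT, both above WT in h3.3kd but overlapping without H3. Without WT replicate 1, a CRK gene passed the test, as did many of all genes, with a single WT library left. CRK40 was the lowest in WT, and its genotypes overlapped. In the promoter 6 genes were below, against 8.21% of all genes, and 8 above, against 19.4%. In the 5′ window 6 were below, against 19.2%, and 3 above, against 10%, with a median difference of -0.04. The sign there depended on the denominator. Without H3, 13 of 40 were above, against 12% of all genes, and 0 below, against 7.04%, with a median of 0.19. With H3 of replicate 1, 18 of 40 were above, against 15.9%, and 3 below, against 24.6%, with a median of 0.15. H2A.Z in the promoter was below WT at 5 CRK genes, against 5.02% of all genes, and above at 5, against 30.4%.

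**Figure D4:**
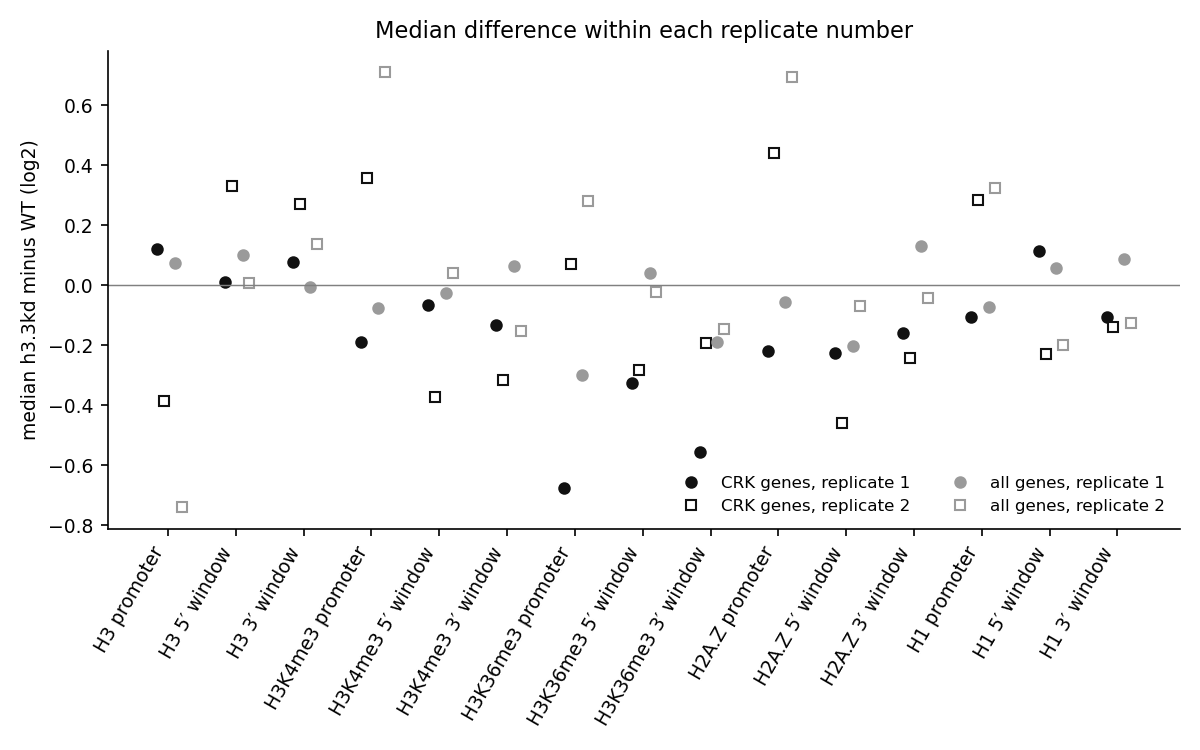
Median difference between h3.3kd and WT (log2) in each of the 15 comparisons, within replicate 1 (circles) and replicate 2 (squares), for CRK genes (black) and all genes tested (grey); the 5′ window is the first 25% and the 3′ window the last 50% of the gene. For H2A.Z in the 3′ window the CRK medians are -0.16 and -0.24, with 0.13 and -0.04 over all genes.

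Array genes and dispersed genes are given side by side. In the 3′ window the 28 array genes had H2A.Z medians of 0.36 and 0.30 in h3.3kd, against 0.58 and 0.69 in WT, and 22 of 28 were below WT in both h3.3kd libraries, against 18.4% of all genes. The 12 measured dispersed genes had medians of 0.05 and 0.18 in h3.3kd, against 0.23 and 0.18 in WT, with 4 of 12 below and 3 above, against 24.7% of all genes above. All 5 genes of the first array and all 4 of the second were below, with median differences of -0.56 and -0.41. In the third array 13 of 19 were below and 4 above, and its 4 were CRK10, CRK11, CRK18 and CRK19. H3 in the 3′ window, the denominator, was higher in h3.3kd by medians of 0.29 for CRK36 to CRK40 and 0.40 for CRK30 to CRK33. The medians were 0.20 for CRK5 to CRK24 and 0.06 for dispersed genes. Without H3, H2A.Z differed by -0.15 at CRK36, -0.35 at CRK37, -0.43 at CRK38, -0.27 at CRK39 and -0.11 at CRK40. It differed by 0.0052 at CRK30, -0.0395 at CRK31, -0.20 at CRK32 and -0.021 at CRK33. The genotypes then overlapped at CRK30, CRK31, CRK33 and CRK36. H3K36me3 in the 3′ window was in the bottom 25% of all genes in both WT libraries at 16 of 28 array genes and 4 of 12 dispersed genes, against 14.8% of all genes. No test of arrays against dispersed genes was made, since genes are not replicates of a genotype.

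**Figure D5:**
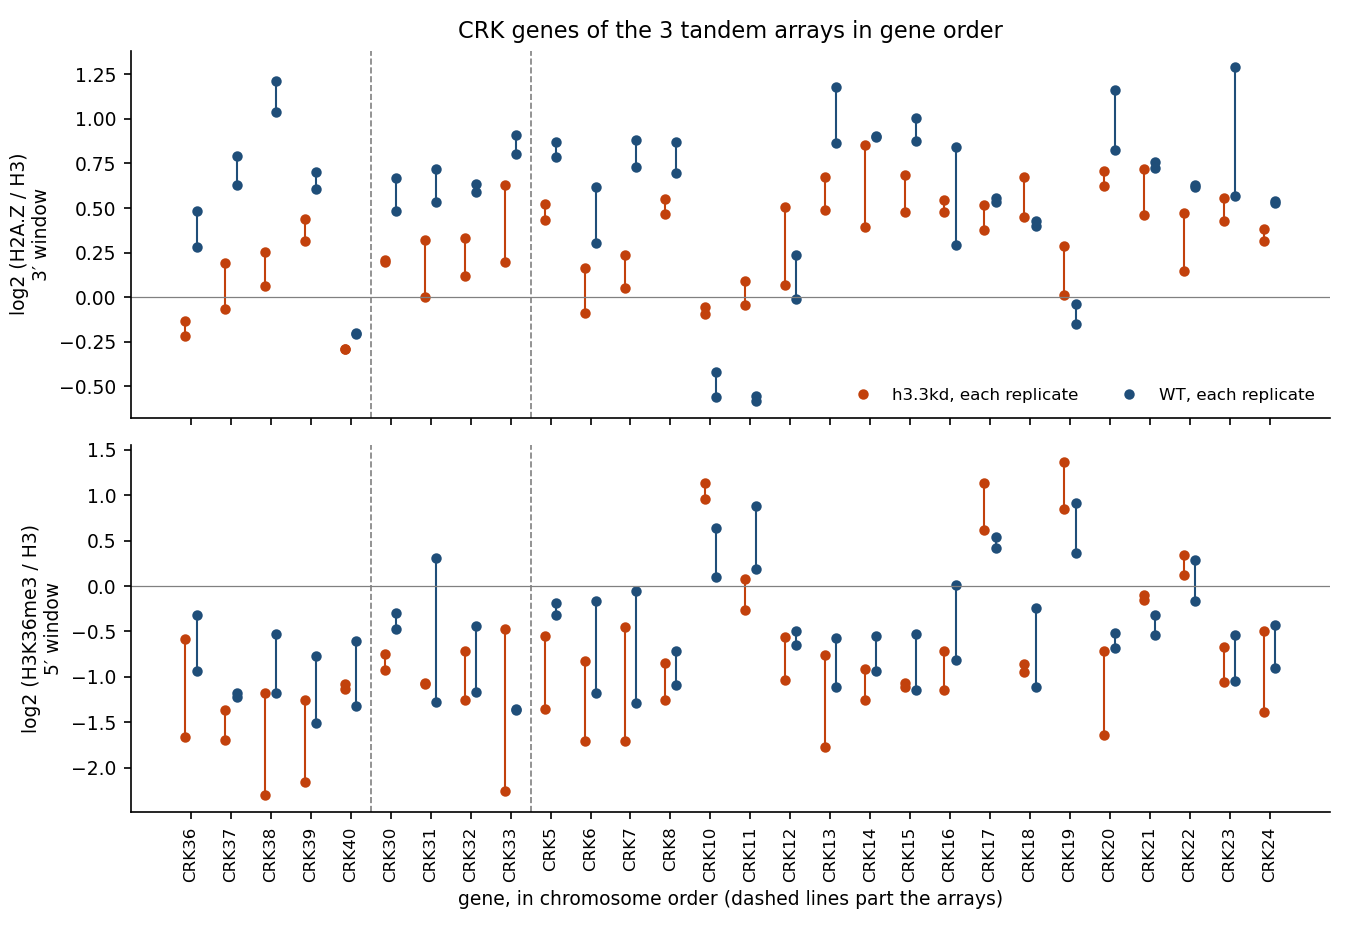
The 28 CRK genes of the 3 tandem arrays in chromosome order, with log2 of H2A.Z over H3 in the 3′ window (top) and of H3K36me3 over H3 in the 5′ window (bottom); points are the replicates of h3.3kd (left of each pair) and WT (right). CRK10 and CRK11 dip in H2A.Z and stand up in H3K36me3 among neighbours with the opposite pattern.

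Members with known roles in immunity were found on both sides of the WT level of H2A.Z. CRK5, whose overexpression promotes cell death and resistance, had H2A.Z in the 3′ window of 0.52 and 0.43 in h3.3kd, against 0.79 and 0.87 in WT, and H3K36me3 in the 5′ window of -1.36 and -0.55 in h3.3kd, against -0.32 and -0.18 in WT. Both marks were below WT in both h3.3kd libraries. CRK20, which also triggers cell death when overexpressed, had H2A.Z of 0.71 and 0.63 in h3.3kd, against 0.82 and 1.16 in WT, and CRK36, an interactor of the kinase BIK1, had -0.13 and -0.22 in h3.3kd, against 0.28 and 0.48 in WT, both without overlap. CRK19, which triggers cell death when induced, had 0.01 and 0.29 in h3.3kd, against -0.15 and -0.04 in WT, and CRK2, which phosphorylates the NADPH oxidase RBOHD, had -0.56 and 0.05 in h3.3kd, against -0.63 and -0.46 in WT. CRK19 was above WT in both h3.3kd libraries and CRK2 overlapped. Without H3 the differences in H2A.Z were -0.040 at CRK5, -0.076 at CRK20 and -0.15 at CRK36, and the genotypes overlapped at these 3 genes and at CRK19 but not at CRK2, where h3.3kd was higher by 0.37.

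CRK28, which associates with the co-receptor BAK1, had the lowest H2A.Z of the family in the 5′ window, at the 3.05th percentile of all genes in WT. It had -0.18 and -0.14 in h3.3kd, against -0.71 and -0.79 in WT (log2 fold change 0.59 ± 0.36 (SE), limma Benjamini-Hochberg adjusted p = 1), with the h3.3kd replicates above those of WT, and its 5′ end lies inside CRK29. Over the 60 values of log2 RPM in 20 libraries and 3 windows, the genes most like CRK28 were CRK42 (Pearson r = 0.825), CRK40 (r = 0.818) and CRK5 (r = 0.806). All 60 values share the differences between libraries in depth and antibody, so these coefficients rank genes only.

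Like groups of genes were set beside the family, to be read against 18.4% of all genes below WT in both h3.3kd libraries and 24.7% above. Genes called secreted relatives here were taken by product text only, and their domains were not checked. The text names cysteine-rich repeat secretory, plasmodesmata-located, DUF26 or receptor-like protein kinase-related family proteins. Of these 54 genes, 42 were measured in the 3′ window. Their median H2A.Z difference there was -0.38, with 22 of 42 below WT in both h3.3kd libraries and 6 above. In WT they exceeded the all-gene median by 0.65 and 0.54. NBS-LRR genes, the intracellular immune receptors, had a median difference of -0.03 with 40 of 114 below and 30 above, and WRKY genes had 0.00 with 16 of 56 below and 11 above. Of 14 immune signalling genes around receptor kinases, 0 passed the test in either direction in any comparison (limma). Their median H2A.Z difference in the 3′ window was 0.30, with 5 above and 2 below, and they lay below the all-gene median in WT by 0.52 and 0.20. MPK3, a kinase of the immune cascade, was among the 5, with H2A.Z of -0.04 and -0.30 in h3.3kd, against -1.05 and -0.75 in WT. Some like groups also stood near the family elsewhere. For H3K36me3 in the 3′ window, 67 of 114 NBS-LRR genes were below WT and 0 above, against 28.6% and 7.48% of all genes. Secreted relatives had 11 of 42 below, WRKY genes 12 of 56 and immune signalling genes 2 of 14. In the 5′ window 25 of 39 secreted relatives were below WT for H2A.Z and 22 of 39 for H3K4me3, with 1 above for each mark. Of all genes 26% and 14.2% were below.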

How the data were processed

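ChIP-seq reads of 20 libraries were used as deposited. Per the paper's methods, the authors used Bowtie against TAIR10 with mismatches allowed, retained reads of unique position, removed reads at the same coordinates and normalised by the total of uniquely mapping reads; the deposited files list positions of single reads, not counts or scores, and 4 of them (replicate 2 of H3K4me3 and H2A.Z in both genotypes) give no strand. No read ran past a chromosome end of the TAIR10.1 RefSeq genome, whose annotation gave the genes. Here reads (50 bases, 5′ start as listed) were counted in the promoter (500 bp), the first 25% and the last 50% of 26206 genes, and scaled per 1000000 reads (RPM). Of 27444 nuclear protein-coding genes, 1237 under 500 bp and 1 whose promoter ran off a chromosome were left out. The value of a mark was log2(RPM + 0.1) minus that of H3 of the same genotype and replicate number. Fold changes on this scale understate changes of low windows. Only windows averaging 10 reads or more over mark and H3 libraries were fitted with limma 3.58.1 (R 4.3.3; lmFit and eBayes with trend; Benjamini-Hochberg threshold 0.05), with 2 h3.3kd and 2 WT libraries per comparison, after a run that was tested on simulated data; counting used Python 3.11.15, numpy 2.4.6 and pandas 2.3.3. Promoter sequences and motifs were read from the same genome. Members and lists were chosen with earlier results of these data known. Genes named were those with the 2 largest rises, falls, WT maxima and WT minima per antibody with at least 50 reads, those with known roles and the 3 most like CRK28. CRK12, CRK18, CRK41, MPK3 and other genes named to complete a count were chosen after their values were seen. CRK45, on the list of known roles, is not annotated as a cysteine-rich kinase by the product text and was not a member. Alternatives changed the denominator, pseudocount, filter, centring, uniqueness, tool, replicate block and libraries; the crossed block and the duplicate correction were chosen after seeing the data.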

Additional observations from a re-analysis of the deposited data

How the results depend on the processing

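No CRK gene passed the adjusted p in the 15 comparisons with another pseudocount, without the read filter, with windows at least 80% unique, after centring, with limma-voom, without H3 or with the replicate block. The replicate block called 0 CRK genes. In this balanced design the block cannot change a difference, only its standard error. Replicate numbers did not pair the samples (correlations of deviations between -0.25 and 0.19 with 2 pairs), and the crossed block for H3 in the promoter and 3′ window also called 0. With H3 of replicate 1 as denominator 7 CRK genes passed for H3K36me3 and 2 for H1 in the promoter. Over all genes 63 to 2887 passed per comparison with that denominator. With pooled H3 1 passed for H3K4me3 and 1 for H2A.Z there, with 0 to 2783 over all genes per comparison. Both denominators remove a source of spread by construction, so these counts are not read as a trait of the CRK genes. With H3 of replicate 1 the median difference was -0.16 for H1 and -0.20 for H2A.Z in the promoter, 0.15 for H1 and -0.19 for H2A.Z in the 5′ window, and -0.040 for H1 and -0.094 for H2A.Z in the 3′ window. Pooled H3 gave -0.18 for H2A.Z in the 3′ window. Without H3 the medians were -0.011 for H3K4me3, 0.19 for H1 and -0.13 for H2A.Z in the 5′ window, and 0.045 for H1 and -0.040 for H2A.Z in the 3′ window. Centring gave 0.19 for H3, -0.20 for H2A.Z and -0.22 for H3K4me3 in the promoter, and -0.21 and -0.29 for H2A.Z in the 5′ and 3′ windows. The excess of CRK genes over all genes in WT H2A.Z in the 3′ window was 0.94 without H3, 0.33 with H3 of replicate 1 and 0.57 after correction for removed duplicates, and that of H3K36me3 was -0.25 without H3. The values without H3 are log2 RPM of a window that grows with the gene and were not scaled for length. CRK genes were longer than all genes, with medians of 2936 bp and 2147 bp. The excesses without H3 are therefore not comparable with those over H3. Leaving out 1 library at a time, the lone sample being assumed to vary like the others, gave 0 to 2 CRK genes called for H3 in the promoter, 0 to 5 in the 5′ window and 0 to 12 in the 3′ window, 0 to 4 for H3K4me3 in the promoter, 0 to 2 and 0 to 4 for H2A.Z in the 5′ and 3′ windows and 0 to 1 for H1 in the 3′ window. The median differences then ranged from -0.35 to 0.078, 0.067 to 0.31 and 0.070 to 0.26 for H3 in the 3 windows. In the promoter they ranged from -0.15 to 0.55 for H3K4me3, -0.59 to -0.052 for H3K36me3, -0.15 to 0.33 for H2A.Z and -0.038 to 0.33 for H1. In the 5′ and 3′ windows they ranged from -0.32 to -0.14 and -0.39 to -0.077 for H3K4me3, and from -0.55 to -0.086 and -0.65 to -0.11 for H3K36me3. They ranged from -0.24 to 0.093 for H1 in the 5′ window, and from -0.23 to -0.17 for H2A.Z and -0.15 to -0.067 for H1 in the 3′ window. Over all genes, between 0 and 32 genes were called per comparison, against 63 to 2887 with H3 of replicate 1, 0 to 2783 with pooled H3, 0 to 81 with the replicate block, 0 to 1 with limma-voom, 0 to 6 without H3, 0 to 8001 without WT replicate 1, 0 to 5483 without WT replicate 2 and 0 to 60 without h3.3kd replicate 2. Where a setting changed a value, the cause was not tested. With 2 replicates and medians of 68 to 297 reads per window, single genes are limited by the spread between replicates.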
